A study of Mus musculus with 6 samples.

Results

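UDP-glucuronosyltransferases (UGTs) and cytosolic sulfotransferases (SULTs) are the enzymes that make small lipophilic molecules water-soluble by attaching glucuronic acid or sulfate. The genes described here are those of the deposited duodenum tables whose symbol begins with Ugt1, Ugt2, Ugt3 or Sult. There were 38 such symbols of 23235 in all, on 39 of 23699 table rows, because Sult1c1 has 2 rows. They comprised 20 UGT genes (8 of the UGT1 family, 10 of UGT2 and 2 of UGT3) and 18 SULT genes. The rule reads symbols and no expression value, but it was proposed with earlier results of these data known.

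RNA-seq was done on the first 2 cm of duodenum of mice of mixed background at 6 weeks of age, with 3 control and 3 mutant libraries. Control 1 was Nkx2.2flox/+; Rosa26Tomato/+, control 2 was Rosa26Tomato/+ and control 3 was wild type. Mutants 1 and 3 were Nkx2.2flox/SD; Villin-Cre/+; Rosa26Tomato/+, and mutant 2 was Nkx2.2flox/SD; Villin-Cre/+ without the reporter. Nkx2.2 is a homeodomain transcription factor of gut and pancreatic endocrine cells. SD is an allele altered in its NK2-specific domain, and Villin-Cre drives recombination in intestinal epithelium, so the epithelium keeps the SD form while non-epithelial cells also carry 1 SD allele. No control carried Villin-Cre or SD. The effects of the recombinase, of losing the floxed copy and of the SD allele therefore cannot be told apart.

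The libraries held 19.1 to 22.9 M reads. Nkx2-2 itself was listed at 1.07, 0.647 and 0.716 FPKM in controls against 0.564, 0.772 and 0.909 in mutants, a value that sums all alleles and does not check the labels. FPKM is fragments per kilobase of transcript per M mapped reads, so levels of different genes may be set side by side. Xist and Ddx3y placed 1 male in each group, control 1 and mutant 1. The summed level of 16 enterocyte markers ranged from 27530 to 43640 FPKM in controls and from 34080 to 44940 in mutants. Tissue was bulk, so fewer cells of a type and less RNA per cell cannot be told apart.

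UGTs sit in the endoplasmic reticulum with the active site facing the lumen and use UDP-glucuronate. SULTs are cytosolic and use the activated sulfate PAPS. In the small intestine both classes stand at the first barrier to dietary phenols, drugs and bile constituents, and the conjugates leave the enterocyte through transporters of the Abcc and Abcg families. The UGT1A enzymes are encoded by 1 locus, where each form has its own first exon spliced onto a shared set of downstream exons. Most UGT2 genes are separate genes in a cluster, and some of them are near copies, while Ugt2a1 and Ugt2a2 overlap in position.

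These 2 architectures decide how much of each transcript a read can tell apart, so the sequences are shown first. At the Ugt1a locus (mm9 chromosome 1), the first exons of the 5 forms expressed here lie between positions 89967375 and 90109446 and all join the common exon at 90111619 to 90111750, which is 132 bases long. The last 20 bases of each form's own exon are in lower case and the first 20 bases of the common exon in capitals. They were taken from GENCODE vM1 transcript sequences, 5′ to 3′.
Ugt1a9: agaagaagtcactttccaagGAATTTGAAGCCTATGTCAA
Ugt1a7c: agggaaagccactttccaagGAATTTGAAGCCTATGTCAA
Ugt1a6b: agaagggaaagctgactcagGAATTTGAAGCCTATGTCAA
Ugt1a6a: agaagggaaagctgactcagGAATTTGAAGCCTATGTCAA
Ugt1a1: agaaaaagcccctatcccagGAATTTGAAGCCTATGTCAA
The capitals are the same in every line, and Ugt1a6a and Ugt1a6b also share all 20 bases in lower case. Across the coding part of the first exon Ugt1a6a and Ugt1a6b were identical at 832 of 858 aligned bases (97.0%), Ugt1a9 and Ugt1a7c at 80.6%, and the other pairs at 54.0% to 57.3%. Of all stretches as long as a read (101 bases) in the transcript, the share found in no other protein-coding gene was 42.8% for Ugt1a1, 41.5% for Ugt1a9, 31.5% for Ugt1a6a, 28.6% for Ugt1a7c and 15.9% for Ugt1a6b. Most of a Ugt1a transcript is thus common property of the locus. The GENCODE vM1 transcripts used for these shares have 2224, 2190 and 2265 bases for Ugt1a1, Ugt1a9 and Ugt1a6a. The models behind the FPKM have 3229, 3216 and 3302. For Ugt1a7c (3231 and 3294) and Ugt1a6b (2249 and 2293) the lengths are close, so the shares of the forms are not directly comparable.

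Among the UGT2 genes the close trio is Ugt2b5, Ugt2b37 and Ugt2b38. Over 1593 coding bases Ugt2b5 matched Ugt2b38 at 97.0% and Ugt2b37 at 94.7%, and Ugt2b37 matched Ugt2b38 at 94.1%. Their most divided stretch, coding bases 480 to 539 counted from the start codon, shows the pattern, with capitals at the 12 positions of 60 where the 3 sequences are not all alike.
Ugt2b5: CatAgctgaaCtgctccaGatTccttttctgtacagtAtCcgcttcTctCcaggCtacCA
Ugt2b38: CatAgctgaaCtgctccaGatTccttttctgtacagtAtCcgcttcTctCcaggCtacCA
Ugt2b37: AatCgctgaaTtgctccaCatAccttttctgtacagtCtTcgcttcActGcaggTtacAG
Here Ugt2b5 and Ugt2b38 are the same letter for letter and Ugt2b37 stands apart. The longest run identical in all 3 was 118 bases, longer than a read. The share of read-length stretches found in no other gene was 75.4% for Ugt2b5, 75.9% for Ugt2b38 and 99% for Ugt2b37, and it was 99.5% to 100% for Ugt2b34, Ugt2b35, Ugt2b36 and Ugt2a3. For the 6 SULT genes whose mean reached 0.2 FPKM it was 100%.

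The authors' deposited table of normalized counts followed these shares in most members. Relative to the mean number of reads recovered here from transcript coverage, the count in the authors' deposited table was 28.2% to 33.2% for Ugt1a1, Ugt1a6a, Ugt1a7c and Ugt1a9. It was 69.4% for Ugt2b5 and 77.2% for Ugt2b38, and 98.4% to 112% for Ugt2b34, Ugt2b35, Ugt2b36, Ugt2a3 and the 6 SULT genes. Ugt1a6b had a count of 11.4 in the authors' deposited table against 1980 apportioned reads, or 0.576%. Its transcript model in the tables ends at position 90115573 of chromosome 1, whereas the other Ugt1a models end at 90116577. Ugt2b37 had a count of 0.703 in the authors' deposited table against 24.8 apportioned reads. The FPKM levels of the Ugt1a forms and of Ugt2b5, Ugt2b37 and Ugt2b38 are therefore apportioned estimates, and those of Ugt1a6b and Ugt2b37 have almost no counterpart in the counts.

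**Figure D1:**
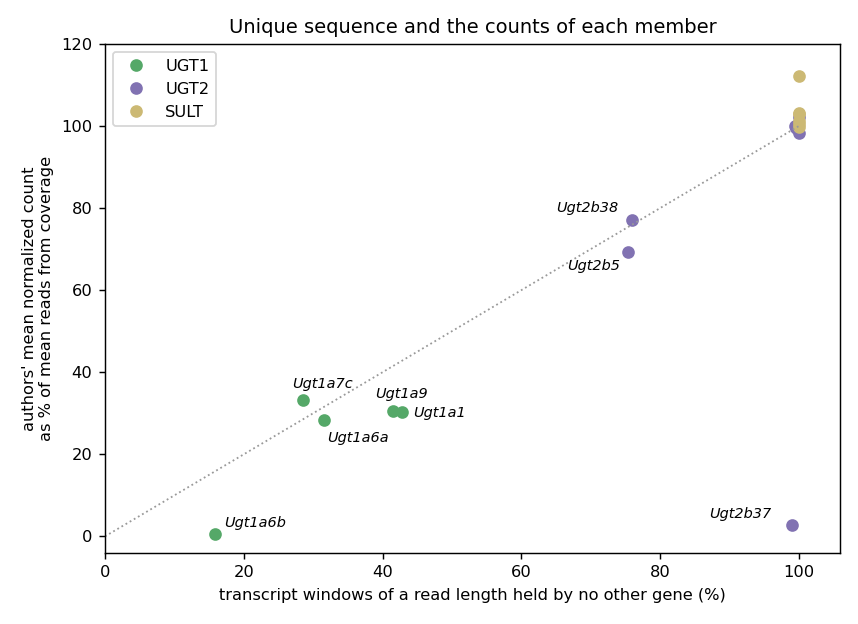
Share of read-length transcript stretches found in no other protein-coding gene (horizontal, %) against the authors' mean normalized count as a percentage of the mean reads recovered from coverage (vertical), 1 point per gene whose mean reached 0.2 FPKM. The dotted line marks equal percentages. The shares of Ugt1a1, Ugt1a9 and Ugt1a6a were counted on shorter transcript models than the reads. Ugt2b37, at 99% and 2.83%, lies far below it, and Ugt1a6b sits at 15.9% and 0.576%.

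The duodenum expressed a minority of the families, at very unequal levels. Of the 38 genes, 18 reached a mean of 0.2 FPKM, the limit for testing (5 of 8 UGT1, 7 of 10 UGT2, 0 of 2 UGT3 and 6 of 18 SULT). A mean of at least 10 FPKM was reached by 13 genes and a mean of at least 100 FPKM by 5. Those 5 were Ugt2b34, Sult1b1, Sult1d1, Ugt1a7c and Sult2b1, at ranks 215, 341, 359, 443 and 609 among all gene rows by mean FPKM. Ugt2b34 was the highest member in each of the 6 libraries, from 390 to 530 FPKM. Its lowest library was above the highest library of every other member. Sult1b1 (256 to 290 FPKM), Sult1d1 (214 to 315) and Ugt1a7c (142 to 295) came next and overlapped one another, and Sult2b1 followed at 126 to 215 FPKM. Ugt2b38, Ugt2a3, Ugt1a1, Ugt2b5, Ugt2b35 and Ugt1a6b formed an overlapping middle group, with the highest mean, 94.5 FPKM, for Ugt2b38. Sult1c2, Ugt1a6a, Ugt2b36, Ugt1a9 and Sult1a1 lay below them, and Sult4a1 and Ugt2b37 were last. The place of Ugt1a6b rests on apportioned reads. Its count in the authors' deposited table was 11.4, against 258 for Ugt1a6a, which ranked below it by FPKM.

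**Figure D2:**
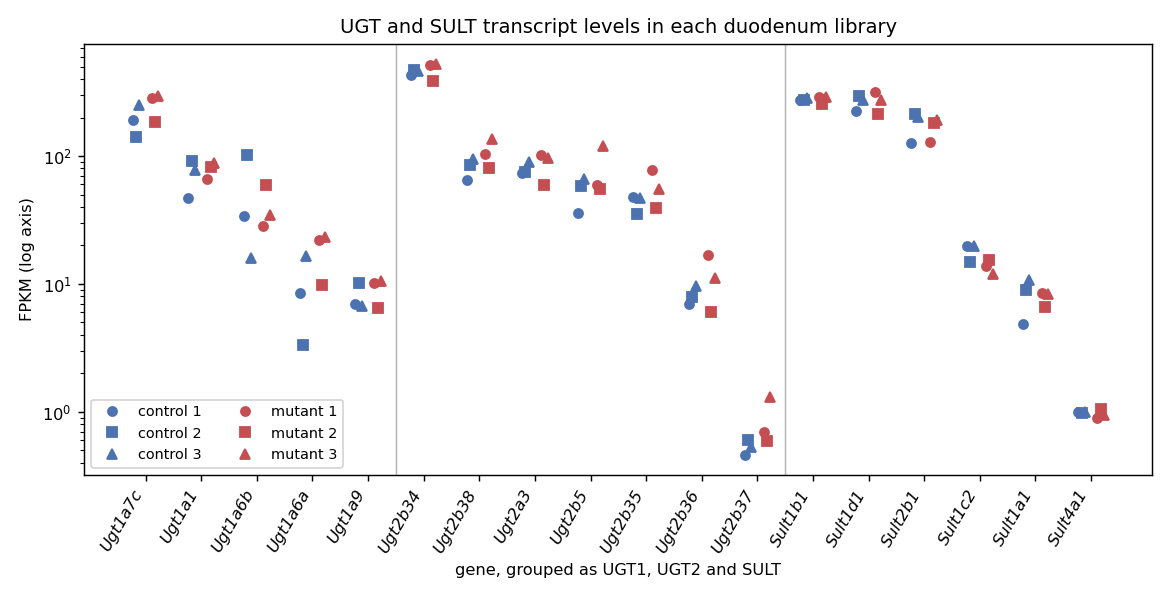
FPKM (vertical, log axis) of the 18 UGT and SULT genes whose mean reached 0.2 FPKM, in each of the 6 libraries (3 controls in blue, 3 mutants in red), ordered by mean level within the UGT1, UGT2 and SULT groups. Levels run from 0.457 FPKM for Ugt2b37 in control 1 to 530 FPKM for Ugt2b34 in mutant 3, and blue and red points overlap for every gene.

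Each family was carried by a few enzymes. Ugt2b34 made up 55.7% to 65.2% of the summed UGT2 FPKM. Ugt1a7c made up 40.6% to 69.1% of the UGT1 sum as apportioned, and Ugt1a1, the bilirubin-conjugating form, 16.1% to 26.0%. Among the SULTs, Sult1b1 took 33.7% to 42.3%, Sult1d1 31.7% to 41.7% and Sult2b1 17.0% to 27.0%. Sult1b1 is known for sulfating thyroid hormones and phenols, Sult1d1 for catecholamines and other amines and phenols, and Sult2b1 for cholesterol and related hydroxysteroids. Sult1a1, the main phenol sulfotransferase of mouse liver, was minor here at 4.83 to 10.7 FPKM.

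The other 20 members were at or near 0. Below 0.01 FPKM in every library were 12 genes: Ugt1a10, Ugt2a1, Ugt3a2, Sult1c1, Sult1e1, Sult2a1, Sult2a2, Sult2a4, Sult2a5, Sult2a6, Sult2a7 and Sult3a1. Ugt1a10 and Ugt2a1 had mean normalized counts of 0.371 and 0.155 in the authors' deposited table, so no limit for a count of 0 is given for them. For the other 10 genes, listed there at 0, the limit that a count of 0 allows is 3 reads over the 126.2 M reads of the 6 libraries together. It runs from 0.012 FPKM for Ugt3a2, the longest of the 10, to 0.0448 FPKM for Sult2a2, the shortest. This limit covers counting error only. Sult1e1, the oestrogen sulfotransferase, had a limit of 0.0226 FPKM. The Sult2a genes are hydroxysteroid and bile acid sulfotransferases of liver, and 6 of the 7 were among the 12, with Sult2a3 detected but under 0.2 FPKM. The other detected genes under 0.2 FPKM were Ugt1a2, Ugt1a5, Ugt2a2, Ugt2b1, Ugt3a1, Sult5a1 and Sult6b1. Ugt1a2 and Ugt1a5 were highest in control 2, at 0.468 and 0.412 FPKM, and did not exceed 0.260 and 0.150 FPKM in the other 5 libraries. Of the 10 liver markers listed, 4 reached 0.2 FPKM. Cps1, a urea cycle enzyme that enterocytes also make, was at 211 ± 3.98 FPKM in controls and 189 ± 21.2 in mutants. Ttr, a thyroid hormone carrier protein, was at 3.17 ± 1.72 and 3.27 ± 1.36 FPKM. Fga and Fgb, which encode fibrinogen chains, were at 0, and Alb, albumin, had a mean of 0.0727 FPKM.

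Levels differed sharply from gene to gene along the cluster on chromosome 5. There 10 UGT2 and 3 SULT1 genes lie within 702 kb (mm9 87318795 to 88020636) in the order Ugt2b34, Ugt2b1, Ugt2b35, Ugt2b36, Ugt2b5, Ugt2b37, Ugt2a3, Ugt2b38, Ugt2a1, Ugt2a2, Sult1b1, Sult1d1 and Sult1e1. Ugt2b1, between Ugt2b34 at a mean of 466 FPKM and Ugt2b35 at 50.5, had a mean of 0.0646 FPKM. Ugt2b37, between Ugt2b5 at 65.9 FPKM and Ugt2a3 at 82.9, had a mean of 0.697. Ugt2a1 and Ugt2a2, next to Sult1b1 at 278 FPKM, had at most 0.0437 FPKM in any library. Sult1e1 was listed at 0 in all 6 libraries, beside Sult1d1 at a mean of 267 FPKM. Highly expressed genes thus lay next to genes at or near 0 in both groups of mice.

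**Figure D3:**
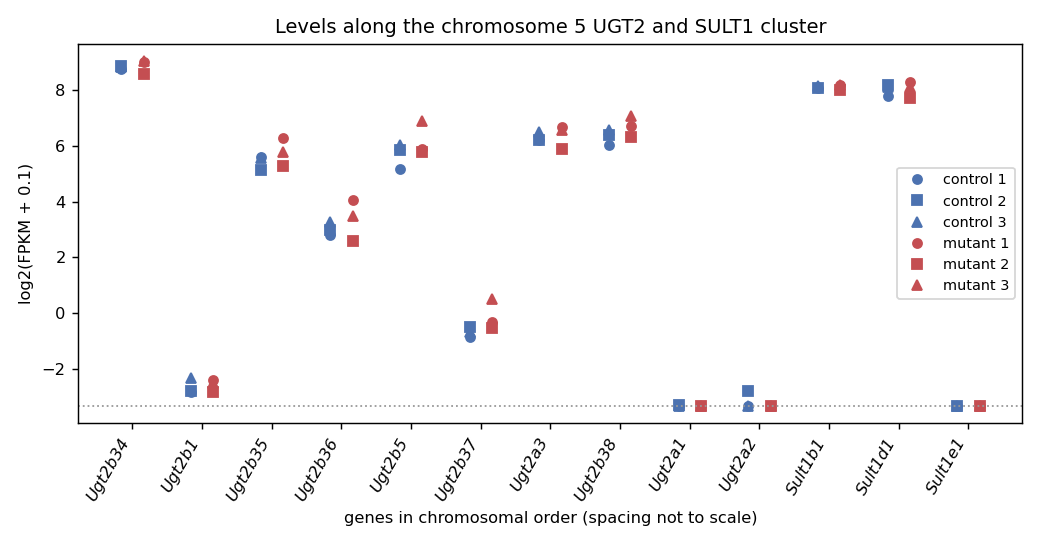
Level on the log2(FPKM + 0.1) scale (vertical) of the 13 genes of the chromosome 5 cluster in chromosomal order (horizontal, spacing not to scale), 1 point per library with controls in blue and mutants in red. The dotted line is the value of 0 FPKM. Ugt2b1, Ugt2a1, Ugt2a2 and Sult1e1 lie on or near it while their neighbours reach up to 530 FPKM.

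Against this background, the comparison of mutant with control duodenum asked whether conjugation genes differed when the epithelium had the SD form of Nkx2.2. None of the 18 tested members passed an adjusted p of 0.05 in the limma test over 14642 genes, where the share of all genes passing was also 0%. Sult1c2 was the single member with an unadjusted limma p under 0.05, against 2.84% of all genes in either direction and 0.861% lower in mutants. All 18 members overlapped between the groups. Of all genes 7.57% did not overlap, and 18 members are too few to tell 0 from that share. With 3 mice against 3, the exact permutation test of a single gene cannot give a p below 0.1.

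Most UGT genes had higher means in mutants without passing the test, and the SULT genes were divided. The mutant mean of log2 values was higher for 15 of the 18 members, against 51.2% of all genes. These were all 5 UGT1, all 7 UGT2 and 3 of the 6 SULT genes. After quantile normalization it was 11 of 18, with Ugt2b34, Sult1b1, Sult1d1 and Sult1a1 turned to lower means. By mean FPKM without logs, Ugt1a6b (50.6 in controls and 40.8 in mutants) and Sult1a1 (8.20 and 7.84) were lower in mutants. Of the tested UGT genes, Ugt1a6b (fold 0.644) and Ugt2b37 (fold 0.894) were lower in mutants in the authors' deposited table. Median log2 changes (mutant minus control) were 0.17 for UGT1, 0.36 for UGT2, -0.02 for SULT and 0.12 for the 18 together, beside 0.00 (0.00419) for all genes. The Ugt1a forms share a locus, and their apportioned reads are linked, as are those of Ugt2b5, Ugt2b37 and Ugt2b38. All members were also measured in the same mice, so they do not count as separate observations. Without control 1 and mutant 1, a comparison added after seeing the data, 9 of 18 had the higher mean in mutants and the median was -0.00160.

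**Figure D4:**
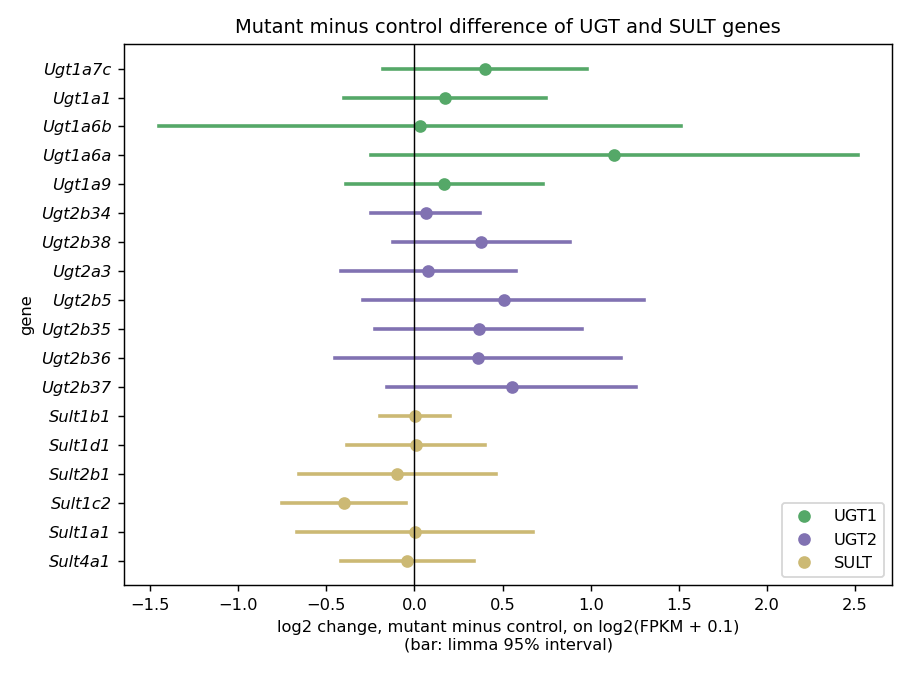
Log2 change, mutant minus control, on the log2(FPKM + 0.1) scale (horizontal) with its 95% limma interval (bar) for the 18 tested UGT and SULT genes (vertical). The interval of Sult1c2, from -0.75 to -0.05, leaves out 0 before adjustment, and the widest is that of Ugt1a6b, from -1.45 to 1.51.

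In the UGT1 family the summed level was 288, 349 and 367 FPKM in controls against 412, 343 and 452 in mutants (335 ± 41.0 and 402 ± 55.3, SD, n = 3). Mutant 2 lay among the controls, and mutants 1 and 3 lay above all of them. Ugt1a7c, a form acting on phenolic xenobiotics, was at 192, 142 and 249 FPKM in controls against 284, 186 and 295 in mutants. Its change was 0.40 on the log2 scale (SE 0.25, 95% interval -0.18 to 0.98, limma p = 0.149, exact permutation p = 0.3). Mutants 1 and 3 exceeded every control and mutant 2 was below control 1. The change was 0.19 without control 2, 0.60 without control 3 and 0.61 without mutant 2. Ugt1a1, which conjugates bilirubin and oestradiol, was at 47.0, 90.9 and 78.4 FPKM in controls against 66.2, 81.6 and 88.9 in mutants. Its change of 0.17 (SE 0.24, exact permutation p = 0.7) became -0.11 without control 1, the lowest library. Ugt1a9 was at 6.97, 10.3 and 6.70 FPKM in controls against 10.1, 6.42 and 10.5 in mutants, with a change of 0.17 (SE 0.24, exact permutation p = 0.9).

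The Ugt1a6 pair had the largest spread. These forms conjugate small planar phenols. Ugt1a6a was at 8.42, 3.30 and 16.7 FPKM in controls against 22.2, 9.79 and 23.3 in mutants. That is a log2 change of 1.13 (SE 0.59, 95% interval -0.24 to 2.51, limma p = 0.0931, exact permutation p = 0.2). It was 0.53 without control 2 and 1.68 without control 3. Ugt1a6b was at 33.9, 102 and 15.9 FPKM in controls against 28.5, 59.3 and 34.7 in mutants, with a change of 0.03 (SE 0.63, 95% interval -1.45 to 1.51). It moved to -0.60 without control 3 and to 0.74 without control 2. Control 2 thus had the most Ugt1a6b and the least Ugt1a6a, and control 3 the least Ugt1a6b. Within each group the library with the most Ugt1a6b had the least Ugt1a6a. Summed over the pair, whose junctions above are identical, the level was 42.3, 105 and 32.5 FPKM in controls against 50.6, 69.1 and 58.0 in mutants (60.1 ± 39.5 and 59.2 ± 9.27). The mutant range lay inside the control range. Ugt1a6b was the larger part of this sum in every library but control 3. In the authors' deposited table Ugt1a6a was the larger part, with mean normalized counts of 172 in controls and 344 in mutants. Those of Ugt1a6b were 13.9 and 8.93. The overlap of the summed pair is thus shown for the FPKM only. The authors' deposited table gave a fold (mutant over control) of 2.00 for Ugt1a6a (p = 0.149, with no value per library) and 0.644 for Ugt1a6b (p = 0.583), and an adjusted p of 1 for both.

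**Figure D5:**
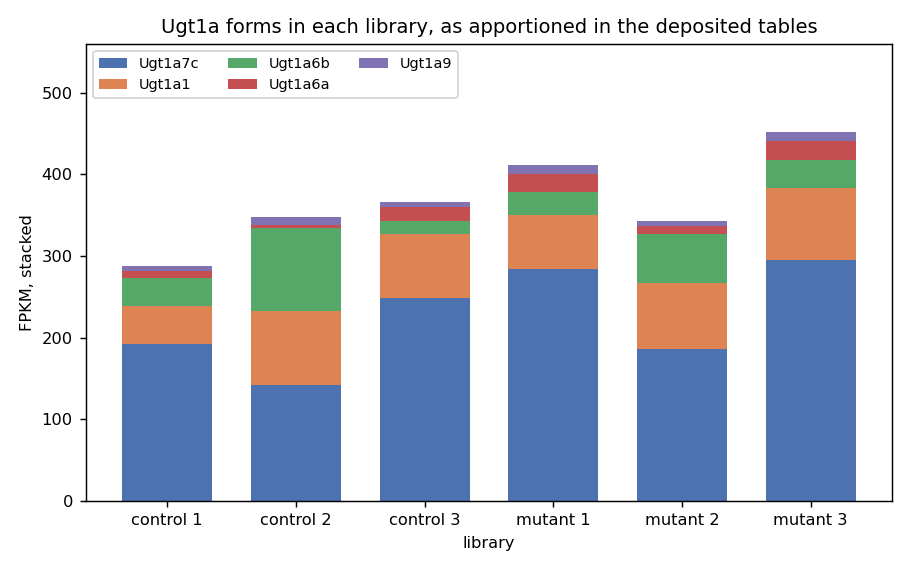
Stacked FPKM of the 5 expressed Ugt1a forms (vertical) in each of the 6 libraries (horizontal), as the deposited tables apportion them. Ugt1a7c is the tallest segment in every library, and the Ugt1a6b segment runs from 15.9 FPKM in control 3 to 102 FPKM in control 2.

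In the UGT2 family, whose enzymes conjugate steroids, bile acids and fatty acids, the sum was 662, 730 and 770 FPKM in controls against 878, 630 and 952 in mutants (720 ± 54.8 and 820 ± 168). Mutants 1 and 3 were above all controls, and mutant 2 was below all of them. Ugt2b34 was at 431, 468 and 462 FPKM in controls against 516, 390 and 530 in mutants. Its change was 0.06 (SE 0.13, 95% interval -0.25 to 0.37, exact permutation p = 0.7), and mutant 2 was the lowest of the 6. Ugt2b35 was at 48.1, 35.3 and 46.9 FPKM in controls against 78.3, 39.1 and 55.5 in mutants, a change of 0.36 (SE 0.25, exact permutation p = 0.4). Ugt2b36 was at 6.93, 7.87 and 9.55 FPKM in controls against 16.8, 5.98 and 11.1 in mutants, also a change of 0.36 (SE 0.34, exact permutation p = 0.5). Both were highest in mutant 1. Without it the change was 0.11 for Ugt2b35 and 0.02 for Ugt2b36. That of Ugt2b35 was 0.22 without control 2 and 0.61 without mutant 2. Ugt2a3, a bile acid conjugating form, was at 73.7, 74.9 and 90.3 FPKM in controls against 103, 59.2 and 96.5 in mutants, with mutant 2 again lowest. Its change was 0.08 (SE 0.21, exact permutation p = 0.8), and -0.07 without mutant 1.

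The near-identical trio was highest in mutant 3. Ugt2b5 was at 36.1, 58.1 and 65.7 FPKM in controls against 59.5, 55.2 and 121 in mutants, a change of 0.51 (SE 0.34, 95% interval -0.29 to 1.30, exact permutation p = 0.5). Ugt2b38 was at 65.0, 84.7 and 95.1 FPKM in controls against 105, 80.8 and 137 in mutants, a change of 0.38 (SE 0.21, exact permutation p = 0.3). Ugt2b37 was at 0.457, 0.601 and 0.530 FPKM in controls against 0.695, 0.592 and 1.31 in mutants, a change of 0.55 (SE 0.30, limma p = 0.109, exact permutation p = 0.2). Control 1 was the lowest library for each of the 3. Without mutant 3 the changes were 0.15 for Ugt2b5, 0.19 for Ugt2b38 and 0.24 for Ugt2b37. The authors' deposited table gave a fold of 1.48 for Ugt2b5 (p = 0.288), 1.30 for Ugt2b38 (p = 0.154) and 0.894 for Ugt2b37 (p = 1), so the direction for Ugt2b37 differed between the FPKM and the counts. The UGT3 genes, whose enzymes use sugars other than glucuronate, had 1 gene at 0 (Ugt3a2) and 1 seen in control 2 at 0.0250 FPKM (Ugt3a1), below testing. In the authors' deposited table Ugt3a1 had a mean normalized count of 0 in controls and 0.308 in mutants.

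The 3 abundant sulfotransferases had means close together in the 2 groups. Sult1b1 was at 275, 273 and 283 FPKM in controls against 289, 256 and 290 in mutants (277 ± 5.66 and 279 ± 19.3). Its change of 0.01 (SE 0.08) had the narrowest interval of the members, -0.19 to 0.20. Sult1d1 was at 224, 296 and 276 FPKM in controls against 315, 214 and 276 in mutants, a change of 0.01 (0.00871, SE 0.17, 95% interval -0.39 to 0.40). Mutant 1 was the highest library and mutant 2 the lowest, so the mutants covered more than the control range. Sult2b1 was at 126, 215 and 202 FPKM in controls against 128, 182 and 190 in mutants, a change of -0.10 (SE 0.24, 95% interval -0.66 to 0.46). Its 2 low libraries were control 1 and mutant 1, the 1 male of each group. These intervals do not show that the genes are equal in both groups, and leaving out single mice turned the sign of all 3.

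Sult1c2, a sulfotransferase of phenolic compounds, was the member nearest to the threshold. It was at 19.9, 14.8 and 19.7 FPKM in controls against 13.8, 15.3 and 12.0 in mutants (18.2 ± 2.88 and 13.7 ± 1.65). Controls 1 and 3 were above all mutants, and control 2 lay between mutant 1 and mutant 2. The fold was 0.758 (95% interval 0.594 to 0.968), or -0.40 on the log2 scale (SE 0.15, limma p = 0.0312, adjusted p = 1.00, exact permutation p = 0.2). The value was -0.54 without control 2 and -0.31 without mutant 3. The unadjusted limma p no longer lay under 0.05 when control 1, control 3, mutant 1 or mutant 3 was left out. The authors' deposited table gave a fold of 0.748 with p = 0.0181 and an adjusted p of 1. Of 18621 genes with a p in the authors' deposited table, 1.12% had an unadjusted p under 0.05 and 0.0269% passed after adjustment. Sult1c2 rested on a mean of 420 reads per library, and 100% of its read-length stretches were found in no other gene. Sult1a1 was at 4.83, 9.01 and 10.7 FPKM in controls against 8.55, 6.64 and 8.32 in mutants. Its change was 0.00 (0.00347, SE 0.28) and became -0.33 without control 1, its lowest library. Sult4a1, a brain form with no well-defined activity, was at 0.989, 0.986 and 0.995 FPKM in controls against 0.891, 1.05 and 0.944 in mutants. It rested on 44.7 reads per library.

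Single mice stood apart across many members. Mutant 3 was the highest library for 8 of the 18 members and mutant 1 for 4. Control 1 was the lowest for 6 and mutant 2 for 6. The median deviation of the 18 members from their mean in the other 5 libraries, on the log2 scale, was -0.29 in control 1 and -0.25 in mutant 2. It was 0.17 in mutant 1 and 0.26 in mutant 3. The enterocyte markers matched these deviations in control 1, mutant 2 and mutant 3, but not in mutant 1, which lay below controls 2 and 3. Their summed level was lowest in control 1 at 27530 FPKM and next lowest in mutant 2 at 34080, followed by mutant 1 at 35080 and controls 2 and 3 at 41030 and 43640. It was highest in mutant 3 at 44940 FPKM, and the part of enterocyte content in the UGT and SULT values was not tested. By the median deviation of the members, mutant 2, the mutant without the Tomato reporter, was nearer to control 1 than to the other 2 mutants. Without mutant 2, 7 of 18 members had an unadjusted limma p under 0.05 (Ugt1a6a, Ugt1a7c, Ugt2a3, Ugt2b35, Ugt2b36 and Ugt2b38 higher, Sult1c2 lower), and 0 passed after adjustment. Without control 1, mutant 1 or mutant 3 it was 0 of 18, and without control 3 it was 2. The share of all genes under 0.05 was not counted in these settings, so these counts cannot be called particular to the members. Reporter and mouse cannot be told apart in mutant 2.

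Markers of neighbouring tissue also varied by mouse. The sum of the 6 gastric and Brunner gland markers (of 11 listed) whose mean reached 0.2 FPKM was 5940 FPKM in control 1 and 5958 in mutant 1. It was 637 and 181 in controls 2 and 3 and 1760 and 490 in mutants 2 and 3. Muc6, a gland mucin, was at 79.7 FPKM in control 1 and 63.8 in mutant 1 and from 1.76 to 24.3 in the rest, while the parietal cell genes Atp4a and Atp4b stayed under the 0.2 FPKM limit. Tff1, a trefoil peptide of gastric surface mucus, was at 1.40, 0.381 and 0.351 FPKM in controls against 1.96, 2.38 and 2.20 in mutants (limma p = 0.0059, exact permutation p = 0.1). Gif, gastric intrinsic factor, was at 0.742, 0.0386 and 0.427 FPKM in controls and listed at 0 in the 3 mutants (limma p = 0.0191, exact permutation p = 0.1). Neither passed after adjustment. The 2 gland-rich libraries were also the 2 males and had the lowest Sult2b1 and Ugt1a1, and sex and gland content cannot be told apart here. Without both, the change of Sult1c2 was -0.33 and that of Ugt1a6a 1.01. The sum of 11 pancreatic acinar markers, of 12 listed, was 58.7, 6.72 and 35.8 FPKM in controls against 12.0, 59.8 and 10.5 in mutants. Cpa1, a pancreatic carboxypeptidase, was at 1.61, 0 and 1.20 FPKM in controls against 0, 1.47 and 0 in mutants. Mutants 1 and 3, with low acinar sums, were the mutants with high UGT levels. Control 2 had the lowest acinar sum of the controls, but its UGT1 and UGT2 sums (349 and 730 FPKM) lay between those of the other controls. They were 288 and 662 in control 1 and 367 and 770 in control 3. The part of either tissue in the UGT values was not tested.

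The supply of cofactors was measured beside the enzymes, with lists whose choice, like that of the members, was made with earlier results known. Of 9 genes listed for UDP-glucuronate supply, from hexokinases to nucleotide sugar carriers, 5 had higher and 4 lower means in mutants. Their median log2 change was 0.11, and 0 had an unadjusted limma p under 0.05. Ugdh, which oxidises UDP-glucose to UDP-glucuronate, was at 357, 442 and 416 FPKM in controls against 454, 405 and 490 in mutants (change 0.15, SE 0.12). Ugp2, which makes UDP-glucose, was at 61.7 ± 7.60 and 66.5 ± 7.06 FPKM. Of 10 tested genes of PAPS supply and recycling, 8 had higher and 2 lower means, with a median of 0.07 and again 0 under 0.05. Papss2, a PAPS synthase, was among the strongly expressed genes at 1361 ± 56.0 and 1422 ± 205 FPKM, and its paralog Papss1 was at 17.0 ± 2.76 and 17.9 ± 1.67. Each of these 4 genes overlapped between the groups.

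Of 10 tested deconjugating enzymes, which remove glucuronate or sulfate, 3 had higher and 7 lower means (median -0.07). Gusb, lysosomal beta-glucuronidase, was at 25.3 ± 2.93 and 25.3 ± 3.13 FPKM. Of 13 carriers that move conjugates, 8 had higher and 5 lower means (median 0.03). Abcc2, the apical exporter of glucuronides, was at 20.1, 53.3 and 48.9 FPKM in controls against 31.0, 61.9 and 74.7 in mutants. The lowest library of each group was again control 1 and mutant 1. Abcc3, its basolateral counterpart, was at 40.8 ± 11.2 and 50.7 ± 6.76 FPKM, and Abcg2, an exporter of sulfates, at 70.9 ± 17.5 and 70.9 ± 15.7. Neither list had a gene with an unadjusted limma p under 0.05.

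None of the 23 receptors and partners known to induce UGT and SULT genes passed the adjusted test, and neither did any of their 20 tested target genes outside the UGT and SULT families. Of the receptors and partners, 14 had higher and 9 lower means (median 0.05). Ahr, the aryl hydrocarbon receptor, was at 6.56 ± 0.844 FPKM in controls against 6.75 ± 0.489 in mutants. Nr1i2, the pregnane X receptor, was at 59.5 ± 14.6 and 69.0 ± 5.51 FPKM. Nr1i3, the constitutive androstane receptor, was at 38.3 ± 5.99 and 41.3 ± 6.31, and Nfe2l2, the oxidant-responsive factor Nrf2, at 181 ± 28.1 and 192 ± 26.8. Pparg, a lipid-sensing receptor, was the 1 gene of the 23 with an unadjusted limma p under 0.05, beside 2.84% of all genes. It was at 22.0, 23.2 and 23.1 FPKM in controls against 23.0, 32.0 and 34.5 in mutants (limma p = 0.0467, exact permutation p = 0.3), and the groups overlapped. Of the 20 target genes, 18 had higher means in mutants (median 0.41), beside 51.2% of all genes. Of these, 4 had an unadjusted limma p under 0.05, all higher, against 1.98% of all genes in that direction, and 0 passed after adjustment. The summed level of the targets was 1877, 3819 and 3561 FPKM in controls against 3354, 3790 and 4944 in mutants, with control 1 apart below the rest. Without control 1, 16 of the 20 had higher means (median 0.33), beside 60.3% of all genes, and 1 had an unadjusted limma p under 0.05. Without mutant 3 it was 16 with a median of 0.21 and 2 under 0.05, and without control 1 and mutant 1 it was 14 with a median of 0.21 and 2 under 0.05.

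The 3 targets with the smallest p were a P450, a glutathione transferase and a second P450. Cyp4a10, a fatty acid hydroxylase, was at 4.42, 1.69 and 5.11 FPKM in controls against 11.7, 5.83 and 9.70 in mutants (change 1.34, SE 0.43, limma p = 0.0168, exact permutation p = 0.1). Gstm1, a glutathione transferase, was at 101, 154 and 161 FPKM in controls against 283, 162 and 300 in mutants (change 0.82, SE 0.27, limma p = 0.0196, exact permutation p = 0.1). Cyp1a2 was at 0.413 ± 0.0905 and 0.971 ± 0.575 FPKM (limma p = 0.0373, exact permutation p = 0.1). In these 3 genes the groups did not overlap, but in Gstm1 mutant 2 stood next to the controls at 162 against 161 FPKM, as it did among the UGTs. Nqo1, a quinone reductase, was the fourth gene under 0.05, at 70.5, 63.4 and 73.9 FPKM in controls against 87.2, 72.5 and 98.2 in mutants (change 0.30, limma p = 0.0473, exact permutation p = 0.2), and mutant 2 lay among the controls. The classic reporters Cyp1a1, Cyp2b10 and Cyp3a11 overlapped between the groups, at 25.1 ± 5.17 and 35.7 ± 25.2, 261 ± 82.7 and 332 ± 83.6, and 783 ± 487 and 942 ± 306 FPKM.

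Substrates of Ugt1a1 arise from haem breakdown. Of the 5 haem and bilirubin genes, 4 had higher means in mutants. In Hmox1, Blvra and Blvrb the groups did not overlap, all higher, beside 4.14% of all genes. Blvrb, a biliverdin reductase, was at 57.0, 51.0 and 58.2 FPKM in controls against 62.7, 70.9 and 75.2 in mutants (change 0.33, SE 0.10, limma p = 0.0137, adjusted p = 1.00, exact permutation p = 0.1). Blvra, the other biliverdin reductase of the list, was at 23.8, 24.2 and 22.8 FPKM in controls against 24.9, 26.7 and 24.9 in mutants (change 0.11, SE 0.08, limma p = 0.206, exact permutation p = 0.1). Hmox1, haem oxygenase, was at 4.89, 4.52 and 4.09 FPKM in controls against 18.9, 5.77 and 6.49 in mutants, with mutant 1 apart from the rest. Of 11 tested genes of steroid and thyroid hormone handling, 7 had higher and 4 lower means (median 0.03), and Dio1, which deiodinates thyroid hormone, was at 12.4 ± 8.62 and 11.2 ± 5.09 FPKM.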

How the data were processed

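RNA from 3 control and 3 mutant duodena was sequenced from TruSeq libraries. The submitters' processing notes name CASAVA 1.8.2, TopHat, Cufflinks, DESeq and mm9. Their settings were not given in the sources used here. Per the file headers, each library has FPKM per gene and per isoform, and the deposited isoform tables add read coverage (a signal) and length. A deposited table of the authors' comparison holds mean normalized counts per group, their fold as a ratio, its log2 value and p-values, with no value per library, and was used to describe. How reads were shared among near-identical genes bears on the Ugt1a and Ugt2b values.

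The members and gene lists were chosen with earlier results of these data known. The tables hold 23699 gene rows. Those with no successful estimate in a library (344) were left out, and the row with the highest mean was kept per symbol. All member estimates were successful, and each member has 1 isoform. Groups were compared with limma (version 3.58.1, R version 4.3.3), using a trended prior on log2(FPKM + 0.1), two-sided, over the 14642 genes whose mean reached 0.2 FPKM, with Benjamini-Hochberg adjustment over all of them and a threshold of 0.05. Fold changes on this scale understate those of low genes. The test was checked on simulated data. Exact permutation tests (two-sided) used the difference of mean log2 values. Named genes were all members that reached this mean, preset genes of each list and up to 3 per list with the smallest unadjusted p under 0.05. Of the cell type marker lists, only genes described beside a result are named, and the rest are not described here. Atp4a, Atp4b, Fga, Fgb and Cps1 were named after their values were seen.

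Reads were recovered by multiplying coverage by the transcript length, shortened by 210.29 bases, and dividing by the 101 bases of a read. Of values above 0, 62.0% to 63.8% were whole within 0.05, so the reads are estimates and no count test was run. Depth was 21.4, 19.6 and 21.3 M reads in controls and 19.1, 21.9 and 22.9 M in mutants. Uniqueness was counted in GENCODE vM1 protein-coding transcripts, which also gave the printed sequences. In some members their lengths differ from those of the models behind the FPKM. The labels give each mouse a genotype but do not say that the mice are independent, so p-values measure the spread between these samples. Alternatives covered the pseudocount, the filter, quantile normalization, the trend, array weights, a replicate block, repeated symbols, summed isoforms and leaving out each mouse.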

Additional observations from a re-analysis of the deposited data

How the results depend on the processing

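The number of members called at an adjusted limma p of 0.05 was 0 in the 17 alternative settings run, and the smallest adjusted p of any member in any of them was 0.76, under the replicate block. The median change of the 18 members ran from 0.0270 to 0.267 when 1 mouse was left out at a time. Over the same 6 settings the number of members at an unadjusted p under 0.05 ran from 0 to 7, and the number of genes called among all genes from 0 to 3. Summing isoforms called 2 genes among all genes. With a replicate block 1 gene and 4 members at an unadjusted p under 0.05 were found (Ugt1a6a, Ugt1a7c, Ugt2b35 and Ugt2b5, with 0 after adjustment). The share of all genes at an unadjusted p under 0.05 was counted in the main fit only, so these member counts have no background beside them. Same-numbered mice correlated at 0.211, 0.053 and 0.221 in their deviations from the group means, and 2 of 3 controls matched their own number best, so the numbers were not taken to pair the mice.

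Signs turned in members whose change was near 0. With a pseudocount of 1 FPKM Sult1a1 was at -0.00404. Quantile normalization gave -0.00395 for Ugt2b34, -0.0671 for Sult1b1, -0.050 for Sult1d1 and -0.00191 for Sult1a1, with 11 of 18 members higher and the median of all genes at -0.0141. Array weights gave -0.0225 for Sult1d1 and -0.0853 for Sult1a1. Leaving out 1 mouse at a time gave -0.597 to 0.742 for Ugt1a6b, -0.107 to 0.367 for Ugt1a1 and -0.0170 to 0.205 for Ugt2b34. It gave -0.0688 to 0.329 for Ugt2a3, -0.0251 to 0.0646 for Sult1b1 and -0.116 to 0.162 for Sult1d1. It gave -0.333 to 0.234 for Sult1a1, -0.342 to 0.0811 for Sult2b1 and -0.0993 to 0.00678 for Sult4a1. The other 9 members kept their sign in those 6 settings, Ugt1a9 at 0.0422 to 0.395 and Ugt2b36 at 0.0179 to 0.755 among them.

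The comparison without control 1 and mutant 1, chosen after seeing the data, left 0 members at an unadjusted p under 0.05. It gave -0.00945 for Ugt1a9, 0.00626 for Sult4a1, -0.0338 for Ugt2b34, -0.0883 for Ugt2b36, -0.121 for Ugt2a3, -0.0292 for Sult1b1, -0.234 for Sult1d1 and -0.400 for Sult1a1. The cause of these moves was not tested. Depth limits Ugt2b37 and Sult4a1, at 24.8 and 44.7 reads per library.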
